A study of Mus musculus with 8 samples.

Results

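White and brown fat were followed through 10 marker genes of adipocytes in mouse salivary gland tumours induced by AKT, in such tumours under rapamycin, and in normal salivary glands. The genes were Adipoq, Cfd, Lep, Plin1 (listed as Plin in the array files), Cidec, Fabp4, Cidea, Ucp1, Dio2 and Ppargc1a. They were taken by gene name from the array files, where they had 13 of the 41174 probes, and they were picked because earlier results on these arrays had shown fat transcripts higher at day 3 and Ucp1 higher at day 14 of rapamycin. Their differences between treated and untreated tumours are therefore a description and carry no test. Of the 10 genes, 9 passed the filter on dim probes, and Lep did not. Ucp1 and Dio2 passed it only through tumour arrays, Ucp1 in untreated and treated tumours and Dio2 in treated tumours.

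RNA of 8 samples was measured on 1-colour Agilent whole mouse genome arrays. The tumours were untreated (2 arrays), or had received rapamycin, an inhibitor of the mTOR kinase, for 3 days (1 array) or 14 days (2 arrays). The normal tissues were submandibular gland (1 array) and parotid gland (2 arrays). The labels give no strain, age, rapamycin dose or driver of AKT, and nothing on whether replicates are different mice, so the p-values measure only the spread between these samples. Levels are log2 signals minus the log2 of the 75th percentile of the same array, so 0 is the 75th percentile.

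The 75th percentile of the signal ranged over the arrays between 145.0 (parotid replicate 2) and 971.8 (untreated tumour replicate 2), and was 177.2 and 235.8 at day 14. A probe at background therefore sat near −7.8 in the untreated tumours and nearer −5.5 at day 14, and levels of probes that were not well above background are not comparable between groups. No spot was saturated. Non-uniform spots numbered 791 at day 3 and 5 to 51 elsewhere. Xist and the Y-linked Ddx3y, Kdm5d and Eif2s3y were all well above background on both day 14 arrays. Untreated tumour replicate 1 and parotid replicate 2 had the Y-linked genes without Xist, as in males, and the other 4 arrays Xist without the Y-linked genes, as in females. The replicates of untreated tumour and of parotid thus came from mice of different sex, and both day 14 arrays held transcripts of both sexes. Slide 1 held both untreated tumours, day 14 replicate 1 and parotid replicate 1, and slide 2 held day 3, day 14 replicate 2, the submandibular gland and parotid replicate 2. Untreated and day 3 tumours shared no slide, and slide and time cannot be told apart in that comparison.

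White adipocytes store triglyceride in 1 large droplet and secrete hormones, while brown adipocytes hold many small droplets and burn fatty acids in mitochondria to make heat. Heat production rests on UCP1, which lets protons back across the inner mitochondrial membrane, and is switched on by noradrenaline through beta-adrenergic receptors, cAMP and the coactivator PPARGC1A. Fat surrounds and infiltrates the salivary glands of adult mice, and a gland sample can hold both kinds. In these bulk samples, fewer cells of a type and less RNA per cell cannot be told apart.

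Adipoq, the hormone adiponectin secreted by fat cells, had levels of −4.03 and −7.83 on the untreated tumour arrays, 2.17 at day 3, 2.62 and 3.07 at day 14, −0.11 in the submandibular gland and 1.36 and 3.24 in the parotid glands. Day 3 and day 14 lay close together and within the range of the parotid glands or next to it, and both untreated tumours lay below every other array. On untreated tumour replicate 2 the probe was not well above background. The log2 difference was 8.11 for day 3 minus untreated tumour and 8.78 for day 14 minus untreated tumour. In the order of the group means, day 14, parotid and day 3 did not differ by more than the pooled SD between arrays (1.22), and the submandibular gland and the untreated tumours each lay further below.

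Cfd, the serine protease adipsin that starts the alternative complement pathway, followed the same course. Its levels were −0.79 and −7.00 on the untreated tumour arrays, 4.72 at day 3, 5.85 and 5.73 at day 14, 3.62 in the submandibular gland and 4.39 and 6.72 in the parotid glands. Every treated tumour and every normal gland lay above both untreated tumours, which differed from each other more than for any other of these genes (6.21 on the log2 scale). Cfd was not well above background on untreated tumour replicate 2. The log2 difference from untreated tumour was 8.61 at day 3 and 9.68 at day 14, with a pooled SD of 1.88 between arrays. Among the other 4 groups no neighbours in the order of means differed by more than that SD.

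Lep, which encodes leptin, the satiety hormone of white fat, was not detected. Its probe was spotted 10 times on each array, and no spot of it was well above background on any of the 8 arrays. Its measured levels, −7.34 and −7.73 on the untreated tumour arrays, −5.76 at day 3, −5.41 and −5.90 at day 14, −5.02 in the submandibular gland and −6.10 and −4.56 in the parotid glands, are those of the background on each array. No fold was computed for it.

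Plin1, perilipin, the main coat protein of the adipocyte lipid droplet, was below the detection call on both untreated tumours (−6.04 and −7.81) and well above background on every other array. Its level was 0.54 at day 3 and 2.94 and 2.54 at day 14. It was −1.93 in the submandibular gland and −0.82 and 1.71 in the parotid glands. Plin1 was at least 60-fold higher at day 3 and at least 276-fold higher at day 14 than in untreated tumours. Both day 14 arrays lay above day 3 and above both parotid glands. For a fold given as "at least", the dim group was raised to the lowest signal that its arrays called well above background, unless the gene itself was brighter.

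Cidec, a droplet protein that fuses droplets into the single large one of white fat, had levels of −3.26 and −7.10 on the untreated tumour arrays, 2.18 at day 3 and 4.0 and 4.32 at day 14. It was at 0.76 in the submandibular gland and at 1.69 and 4.05 in the parotid glands. The probe was not well above background on untreated tumour replicate 2. The log2 difference from untreated tumour was 7.36 at day 3 and 9.34 at day 14. Day 14 overlapped the parotid glands, since day 14 replicate 1 lay below parotid replicate 2.

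Fabp4, the fatty acid carrier of adipocytes, which endothelial cells and macrophages also make, was bright in all groups. Its levels were 4.47 and 3.70 on the untreated tumour arrays, 5.80 at day 3, 7.61 and 7.34 at day 14, 4.03 in the submandibular gland and 4.62 and 6.35 in the parotid glands. The 3 treated arrays stood above both untreated tumours, by 1.71 at day 3 and 3.39 at day 14 on the log2 scale, a smaller step than for Adipoq, Cfd, Plin1 or Cidec. The 3 Fabp4 probes gave differences of 1.71 to 1.83 at day 3 and 2.39 to 3.39 at day 14.

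**Figure D1:**
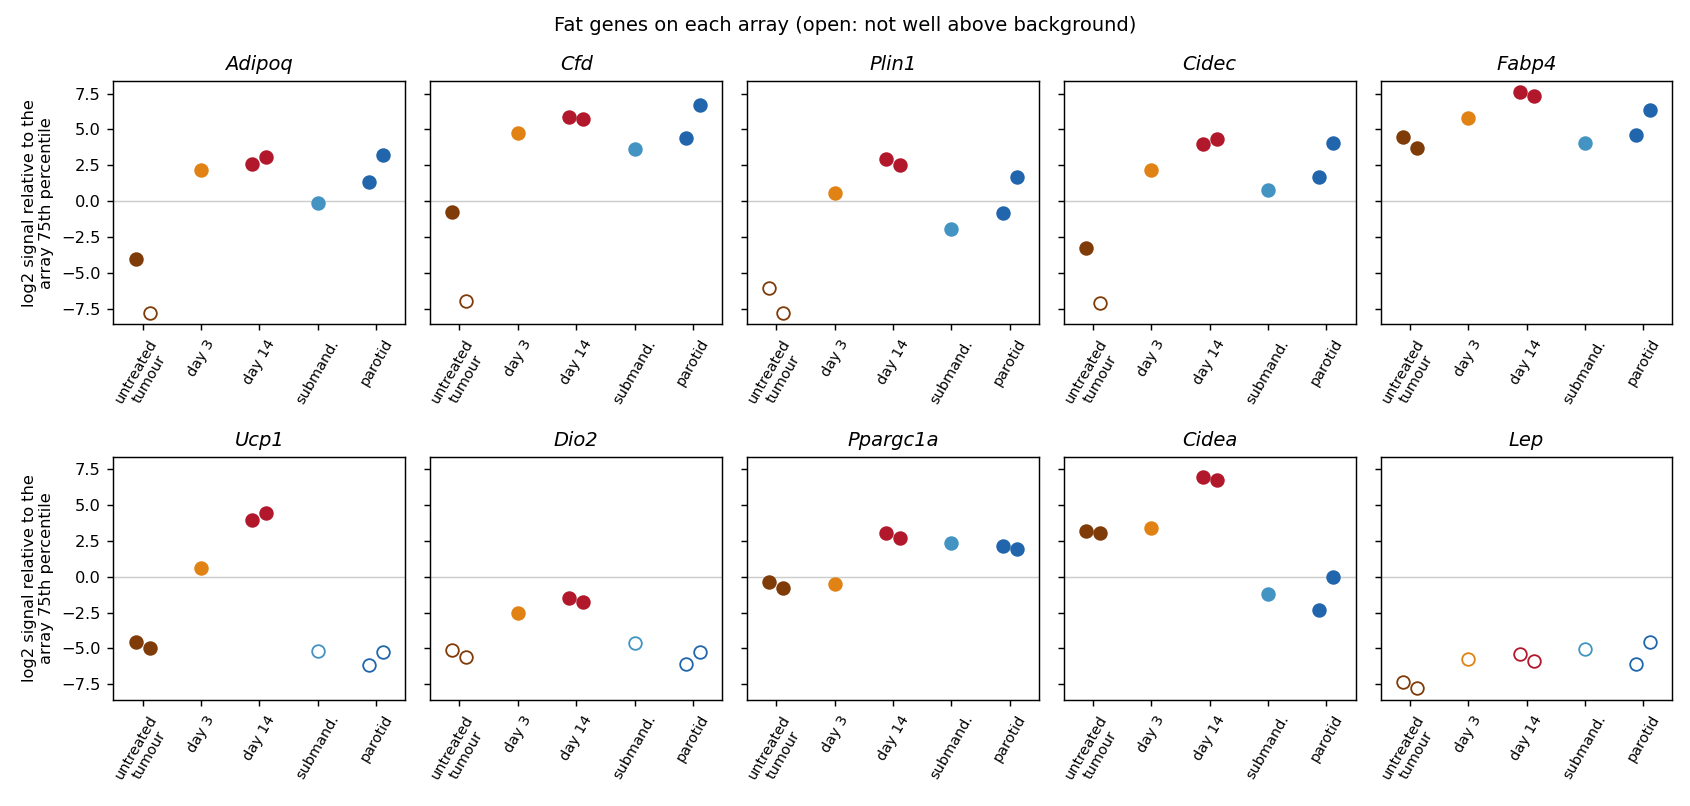
Level of each gene on each of the 8 arrays, as log2 signal relative to the 75th percentile of the array, by group (1 point an array, open where the probe was not well above background). Adipoq, Cfd, Plin1 and Cidec stood high at day 3 (0.54 to 4.72), Cidea and Ppargc1a were near their untreated levels at day 3 and higher at day 14, and Ucp1 was well above background in tumours and not in the normal glands.

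The other 4 genes are known from brown fat and heat production. Ucp1 was well above background on both untreated tumours, at −4.52 and −4.96, at 0.63 at day 3 and at 3.98 and 4.42 at day 14. In the submandibular gland (−5.19) and the parotid glands (−6.18 and −5.22) it was not well above background. Each step in time was larger than the pooled SD of 0.45, with log2 differences of 5.37 for day 3 minus untreated tumour and 3.57 for day 14 minus day 3. The difference of day 14 minus day 3 was 2.20 for Plin1, 1.98 for Cidec, 1.68 for Fabp4, 1.07 for Cfd and 0.67 for Adipoq.

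Dio2, the deiodinase that makes active thyroid hormone inside brown fat cells, was dim on both untreated tumours (−5.12 and −5.59), on the submandibular gland (−4.59) and on both parotid glands (−6.06 and −5.22). It was well above background on the 3 treated arrays alone, with −2.56 at day 3 and −1.46 and −1.79 at day 14. On measured signals it was 6.94-fold higher at day 3 and 13.3-fold higher at day 14 than in untreated tumours. These folds depend on the background of the untreated tumours and are not lower bounds. With the normexp correction the log2 differences were 0.57 at day 3 and 1.58 at day 14, and with the deposited values 1.51 and 2.24. The day 14 mean was 0.93 above day 3 on the log2 scale, against a pooled SD of 0.49.

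Ppargc1a, the coactivator that drives mitochondrial genes in brown fat, muscle and other tissues, had levels of −0.34 and −0.81 in the untreated tumours and −0.52 at day 3. At day 14 it stood at 3.06 and 2.69, near the submandibular gland (2.34) and the parotid glands (2.17 and 1.94). On this probe the day 3 array lay between the untreated tumours and both day 14 arrays lay above all others. On the second, dimmer probe day 14 was at 0.76 and 0.21, the submandibular gland at 0.50 and the parotid glands at 0.33 and 0.26, so that 1 day 14 array lay below the glands. The log2 difference from untreated tumour was 0.06 at day 3 and 3.45 at day 14, and the second probe of the gene gave 0.31 and 2.82.

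Cidea, a droplet protein abundant in brown fat, was bright in the tumours before any treatment. Its levels were 3.23 and 3.03 on the untreated tumour arrays, 3.43 at day 3, 6.95 and 6.78 at day 14, −1.23 in the submandibular gland and −2.34 and −0.03 in the parotid glands. The day 3 value differed from the untreated mean by 0.31, less than the pooled SD of 0.68, and day 14 stood 3.74 above untreated tumour on the log2 scale. Cidea thus had the order day 14, then day 3 with untreated tumour, then the normal glands, while Ppargc1a had the untreated and day 3 tumours last.

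On mm8, the probes lie at chr16:23072837-23072896 (Adipoq), chr10:79295686-79295745 (Cfd) and chr8:86187994-86188053 (Ucp1) on the plus strand. Those of Plin1 (chr7:79594739-79594798), Cidec (chr6:113390476-113390535), Fabp4 (chr3:10186983-10187043), Dio2 (chr12:91130186-91130245) and Ppargc1a (chr5:51745937-51745996) lie on the minus strand.

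Over the 9 genes that passed the filter, the day 3 array lay above both untreated tumours by more than the pooled SD for 7, Cidea and Ppargc1a being the others. Both day 14 arrays lay above both untreated tumours by more than that SD for all 9, and above the day 3 array for all 9. Over all 16362 genes tested, 24.3% were called higher and 23.5% lower at day 14 than in untreated tumours (limma, Benjamini-Hochberg adjusted p under 0.05). At day 3 the share called higher was 0.00611%, a single gene, and none was lower. Between day 14 and day 3, 10.9% were higher and 11.8% lower at day 14, 22.8% in all. These shares are given beside the counts only as background, because the genes were chosen on these comparisons. They are also an unlike measure, being shares of limma calls, while the counts are of arrays that lay apart. The share of all genes that lay apart in that way was not computed. On slide 1 alone, day 14 replicate 1 minus the mean of the untreated tumours was 8.72 for Ucp1, 8.55 for Adipoq, 9.75 for Cfd, 9.18 for Cidec, 3.82 for Cidea, 3.64 for Ppargc1a and 3.52 for Fabp4. On slide 2, day 14 replicate 2 minus day 3 was 3.79 for Ucp1, 3.35 for Cidea, 3.21 for Ppargc1a, 2.14 for Cidec, 2.0 for Plin1, 1.54 for Fabp4, 1.01 for Cfd, 0.90 for Adipoq and 0.77 for Dio2.

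Untreated tumour replicate 1 was higher than replicate 2 for all 9 genes, with a median absolute difference of 0.77 against 0.23 over all genes. The share of all genes higher in replicate 1 was not computed. Without untreated tumour replicate 1 the day 3 difference was 10 for Adipoq, 11.72 for Cfd and 9.28 for Cidec, and without replicate 2 it was 6.21, 5.51 and 5.44. The day 14 arrays differed by a median of 0.33 and at most 0.45 for these genes. With the normexp background correction, which adds an offset before the log2, the day 14 difference was 5.10 for Adipoq, 6.78 for Cfd, 6.06 for Cidec, 6.41 for Ucp1 and 1.58 for Dio2.

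**Figure D2:**
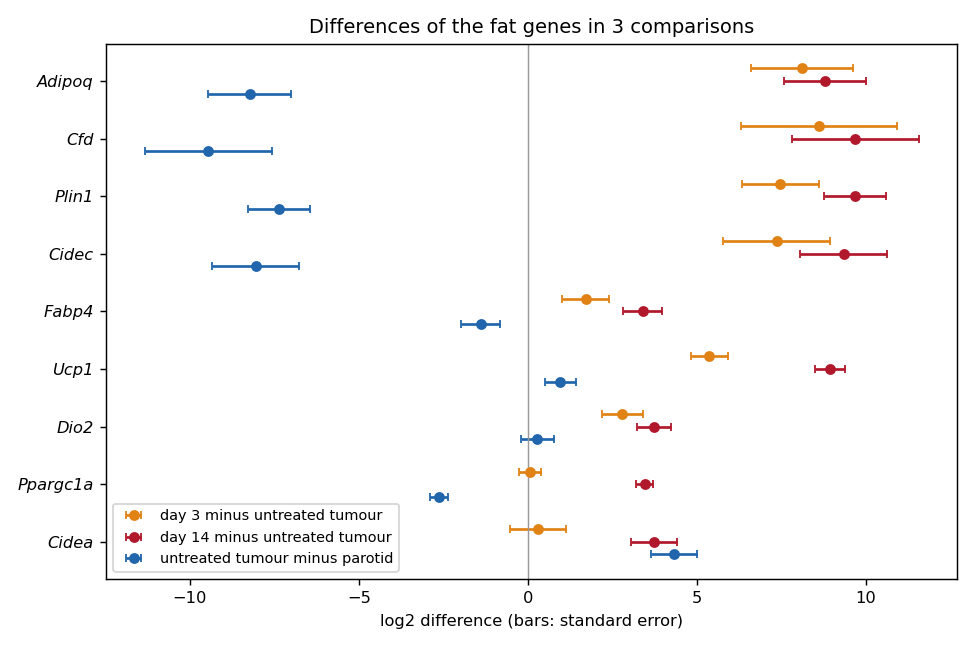
Log2 differences of the 9 genes (points) with their standard errors from the limma fit (bars), for day 3 minus untreated tumour, day 14 minus untreated tumour and untreated tumour minus parotid. Plin1, Dio2 and Ucp1 are drawn with their measured signals also where a group was not well above background (Plin1 and Dio2 in untreated tumours, Ucp1 and Dio2 in parotid glands), so those points depend on the background. Cidea has a difference of 4.31 in untreated tumour minus parotid, and Ppargc1a and Cidea lie near 0 at day 3.

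Since Ucp1, Dio2 and Ppargc1a belong to the response of brown fat to cAMP, their upstream sequence is shown with the cAMP response element, the site bound by CREB, and that of Adipoq is shown for comparison as a white fat hormone gene. The windows are the 250 bases before the annotated start, 5′ to 3′ on the strand of the gene, from RefSeq (GRCm38.p6), and capitals mark TGACG or its reverse complement CGTCA, and the full palindrome TGACGTCA where present.
Ucp1: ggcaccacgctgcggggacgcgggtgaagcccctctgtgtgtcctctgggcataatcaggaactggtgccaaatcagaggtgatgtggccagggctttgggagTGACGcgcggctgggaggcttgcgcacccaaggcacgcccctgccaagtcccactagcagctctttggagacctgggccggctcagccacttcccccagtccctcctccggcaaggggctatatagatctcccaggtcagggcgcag
Dio2: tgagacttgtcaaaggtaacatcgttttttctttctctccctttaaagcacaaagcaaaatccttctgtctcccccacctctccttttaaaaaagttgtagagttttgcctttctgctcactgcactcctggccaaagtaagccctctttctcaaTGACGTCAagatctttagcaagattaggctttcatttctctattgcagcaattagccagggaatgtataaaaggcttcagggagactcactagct
Ppargc1a: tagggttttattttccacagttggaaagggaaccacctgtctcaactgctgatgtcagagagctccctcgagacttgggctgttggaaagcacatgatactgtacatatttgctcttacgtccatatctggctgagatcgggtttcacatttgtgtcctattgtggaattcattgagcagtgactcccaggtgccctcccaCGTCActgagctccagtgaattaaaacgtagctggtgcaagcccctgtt
Adipoq: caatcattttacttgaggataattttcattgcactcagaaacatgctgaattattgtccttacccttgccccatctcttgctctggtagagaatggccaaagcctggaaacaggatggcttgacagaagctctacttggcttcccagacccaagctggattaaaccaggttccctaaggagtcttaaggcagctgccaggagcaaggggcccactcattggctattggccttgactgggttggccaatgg
The Ucp1 window is chr8:83290098-83290347 on the plus strand, that of Dio2 is chr12:90739039-90739288 on the minus strand, that of Ppargc1a is chr5:51567726-51567975 on the minus strand and that of Adipoq is chr16:23146286-23146535 on the plus strand. The motif begins 147 bases before the start of Ucp1, 95 before that of Dio2 and 49 before that of Ppargc1a. In Dio2 it is the full palindrome, which holds the short form on both strands. Of the 32851 upstream windows of this length, 17.8% hold the short form on either strand and 1.55% the full form. The windows of Adipoq, Cfd, Plin1, Cidec and Lep held neither. Of the 10 genes, 8 had a window searched. No window was found for Fabp4, and Cidea was left out of the search. A match is a description of the letters and not a measured site.

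Untreated tumour was set against parotid gland, the comparison of tumour with normal tissue, in which 39% of all genes were called in either direction, 20.3% lower and 18.7% higher. The 9 genes had been picked for being higher in treated tumours than on these same untreated arrays, so low untreated values were part of the choice, and the differences are given as a description with no test. Values after ± are standard errors from limma. Adipoq (−8.23 ± 1.22), Cidec (−8.05 ± 1.29), Cfd (−9.45 ± 1.88), Ppargc1a (−2.63 ± 0.26) and Fabp4 (−1.40 ± 0.57) had both untreated tumours below both parotid glands. Adipoq, Cidec and Cfd were each well above background on 1 of 2 untreated arrays. Plin1, dim in both untreated tumours, was at least 56.1-fold lower than in parotid glands. Cidea had both untreated tumours above both parotid glands, with a difference of 4.31 ± 0.68. Ucp1 (0.96 ± 0.45) was well above background in untreated tumours and dim in parotid glands, and Dio2 was dim in both.

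The difference of Ucp1 between untreated tumour and parotid varied with the settings. It was −0.12 with the normexp correction, 1.73 with quantile normalization and 2.65 with the deposited values. It was 1.44 both on slide 1 alone and without parotid replicate 2. On slide 1 alone Cfd was at −8.29, Adipoq at −7.29, Cidec at −6.86, Ppargc1a at −2.75 and Cidea at 5.47, with the same directions as over both slides.

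Day 14 was set against parotid gland to place the treated tumours beside normal tissue, and 11.3% of all genes were called in either direction, 6.25% higher and 5.07% lower. The day 14 arrays had taken part in the choice of the genes, and Dio2 had passed the filter on dim probes only through treated tumours and Ucp1 only through tumours, so these differences too carry no test. Both day 14 arrays lay above both parotid glands for 6 of the 9 genes. The share of all genes with that order was not computed, and the 11.3% is of limma calls. Cidea had a difference of 8.05 ± 0.68, Ucp1 was at least 220-fold higher and Dio2 at least 3.88-fold higher than in parotid glands. Plin1 (2.30 ± 0.92) and Fabp4 (1.99 ± 0.57) also had both day 14 arrays on top, and so had Ppargc1a (0.82 ± 0.26) on its brighter probe, while its second probe differed by 0.19 with overlapping groups. Adipoq (0.55 ± 1.22), Cfd (0.24 ± 1.88) and Cidec (1.29 ± 1.29) overlapped between day 14 and parotid.

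Within slide 1 and slide 2 the differences of day 14 minus parotid, each of 1 array against 1, were 9.29 and 6.82 for Cidea, 10.17 and 9.64 for Ucp1 and 4.6 and 3.43 for Dio2, the last 2 genes measured against the parotid background. For Cidec, Cfd and Adipoq the slides gave 2.32 and 0.27, 1.46 and −0.99, and 1.26 and −0.17. With the normexp correction the Dio2 difference was 1.19. Parotid replicate 2 was higher than replicate 1 for 8 of the 9 genes, and the absolute difference between them had a median of 1.87 over the 9, against 0.58 over all genes. The share of all genes higher in replicate 2 was not computed. Without parotid replicate 2 the differences were 3.57 for Plin1 and 2.85 for Fabp4, and without replicate 1 they were 1.12 for Fabp4 and 0.94 for Ppargc1a.

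Submandibular was tested against parotid gland with arrays that took no part in choosing the genes, and 2.35% of all genes were called, 1.36% higher and 0.984% lower. None of the 9 genes was called by limma, and 0 of the 9 had an unadjusted p under 0.05. Cfd (−1.94 ± 2.30), Cidec (−2.11 ± 1.58), Adipoq (−2.41 ± 1.5), Plin1 (−2.37 ± 1.13) and Fabp4 (−1.46 ± 0.70) were below both parotid glands in the single submandibular array. The comparison turned on the parotid array. Without parotid replicate 1 the difference was −1.20 for Cidea, −3.64 for Plin1 and −2.32 for Fabp4, and without replicate 2 it was 1.10 for Cidea. Each of these sets 1 array against 1, and the share of all genes called also rose, so no call is given. The submandibular array and parotid replicate 1 had Xist and parotid replicate 2 the Y-linked genes, so sex and replicate cannot be told apart here. With the deposited values Ucp1 was called higher (2.75, adjusted p = 0.044), though dim in both glands.

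Other genes of fat were read from 6 lists, of which 105 of 121 genes beyond the 9 passed the filter on dim probes. At day 14 against untreated tumour 57 rose and 9 fell, 62.9% of the 105, against 47.7% of all genes called in either direction and a median of 1.29 against 0.02 over all genes. Of the 57, 6 (Acvr1c, Dio1, Elovl3, Pde3b, Sncg and Ucp3) had passed the filter only through the day 14 arrays, so their direction was fixed by it, and they are given no p. Among the 74 well above background on all 8 arrays, 36 rose and 7 fell. Under that filter 48% of all 11036 genes were called in either direction. Of 26 white adipocyte genes 20 rose (3 of the 6 above among them), 1 fell and 5 were not called, 80.8% called, with a median of 2.62. Agt, the angiotensin precursor, rose by 8.16 ± 0.39 (adjusted p = 0.000149), Slc2a4, the insulin-regulated glucose transporter of fat and muscle, by 7.48 ± 0.40 (adjusted p = 0.000179), and Rbp4, a retinol carrier, by 7.47 ± 0.96 (adjusted p = 0.00183). Unlike Adipoq, Agt at day 3 (−1.18) lay between the untreated tumours (−2.20 and −0.99). Its level was 6.61 and 6.53 at day 14, 7.75 in the submandibular gland and 7.02 and 6.96 in the parotid glands. The part of gland cells in it was not tested. Rbp4 was well above background on 1 of the 2 untreated arrays, and 1 of the 20, Orm1, was below the detection call in both groups. The one that fell was Fasn, fatty acid synthase, by −1.0 ± 0.31 (adjusted p = 0.0388), named after its value was seen.

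Of 11 lipid droplet genes 4 rose and 1 fell at day 14, 45.5% called, close to the 47.7% of all genes. Mgll, the lipase of monoglycerides, rose by 5.47 ± 0.65 (adjusted p = 0.00136), Fitm1, a fat storage protein of muscle, by 5.0 ± 1.35 (adjusted p = 0.0246) and G0s2, an inhibitor of the triglyceride lipase, by 4.41 ± 0.56 (adjusted p = 0.0017). The one that fell was Plin2, the droplet coat of non-adipose cells, by −2.15 ± 0.23 (adjusted p = 0.00101), again named after its value was seen. The other falls at day 14, likewise, were those of Stat5a, Acot2, Cited1, Elovl6, Slc25a20, Ucp2 and Igf1, and of Col1a1 in the stroma list, between −0.77 for Ucp2 and −2.35 for Col1a1. Plin1 and Plin2 thus differed in direction at day 14. Of 12 genes of adipogenic transcription 4 rose and 1 fell, 41.7% called, again near the share of all genes. Pparg, the main regulator of fat cell formation, rose by 3.29 ± 0.49 (adjusted p = 0.00316), Klf15 by 3.16 ± 0.44 (adjusted p = 0.00236) and Nr1h3, the oxysterol receptor, by 1.70 ± 0.33 (adjusted p = 0.00739).

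Of 26 brown and beige fat genes 16 rose, 3 fell and 7 were not called at day 14, 73.1% called, with a median of 2.63. Cox8b, a cytochrome oxidase subunit of brown fat and striated muscle, rose by 10.32 ± 0.64 (adjusted p = 0.000236) and was well above background on 1 of 2 untreated arrays. Slc36a2, an amino acid transporter of brown fat, was at least 263-fold higher (adjusted p = 0.000161), and Tbx1, a marker of beige fat also known from muscle, rose by 6.65 ± 1.17 (adjusted p = 0.0055), with 1 of 2 untreated arrays well above background. Slc36a2 had levels of −6.49 and −7.76 on the untreated tumour arrays, −0.06 at day 3, 2.59 and 2.75 at day 14, −2.23 in the submandibular gland and −0.53 and −0.98 in the parotid glands. It was dim in both untreated tumours alone. Of the brown fat markers set beside these genes, Elovl3, a fatty acid elongase, was well above background on the day 14 arrays and on no other, at least 18.5-fold higher than in untreated tumours, while Prdm16, a regulator of brown fat identity, was well above background on untreated and day 3 tumours and not at day 14. Otop1 and Zic1, markers of classical brown fat, did not pass the filter.

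Of 17 genes of uncoupling and fatty acid oxidation 5 rose and 2 fell, 41.2% called, under the 47.7% of all genes, with a median of 0.38. Ucp3, the uncoupling protein of muscle and brown fat, was at least 6.29-fold higher, and Acadm (1.62 ± 0.53, adjusted p = 0.0457) and Acsl1 (1.36 ± 0.34, adjusted p = 0.0193), enzymes of fatty acid breakdown and activation, rose. The 3 Acsl1 probes ranged from 0.33 to 1.36. Of 14 receptors and family partners 9 rose and 1 fell, 71.4% called. Dio1, the deiodinase of liver and kidney, was at least 18.8-fold higher, and C3, the complement component on whose pathway Cfd acts, rose by 5.70 ± 0.20 (adjusted p = 7.88e-05). Adrb3, the beta-adrenergic receptor typical of fat, did not pass the filter. Of 12 genes of preadipocytes and stroma, listed apart from the 105, 7 rose and 1 fell, 66.7% called, with Pdgfra, the platelet-derived growth factor receptor of fat progenitors, at least 24.6-fold higher (adjusted p = 0.00214), Pi16 up by 4.42 ± 0.72 (adjusted p = 0.00414) and Dpt, dermatopontin, at least 5.3-fold higher (adjusted p = 0.00269).

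**Figure D3:**
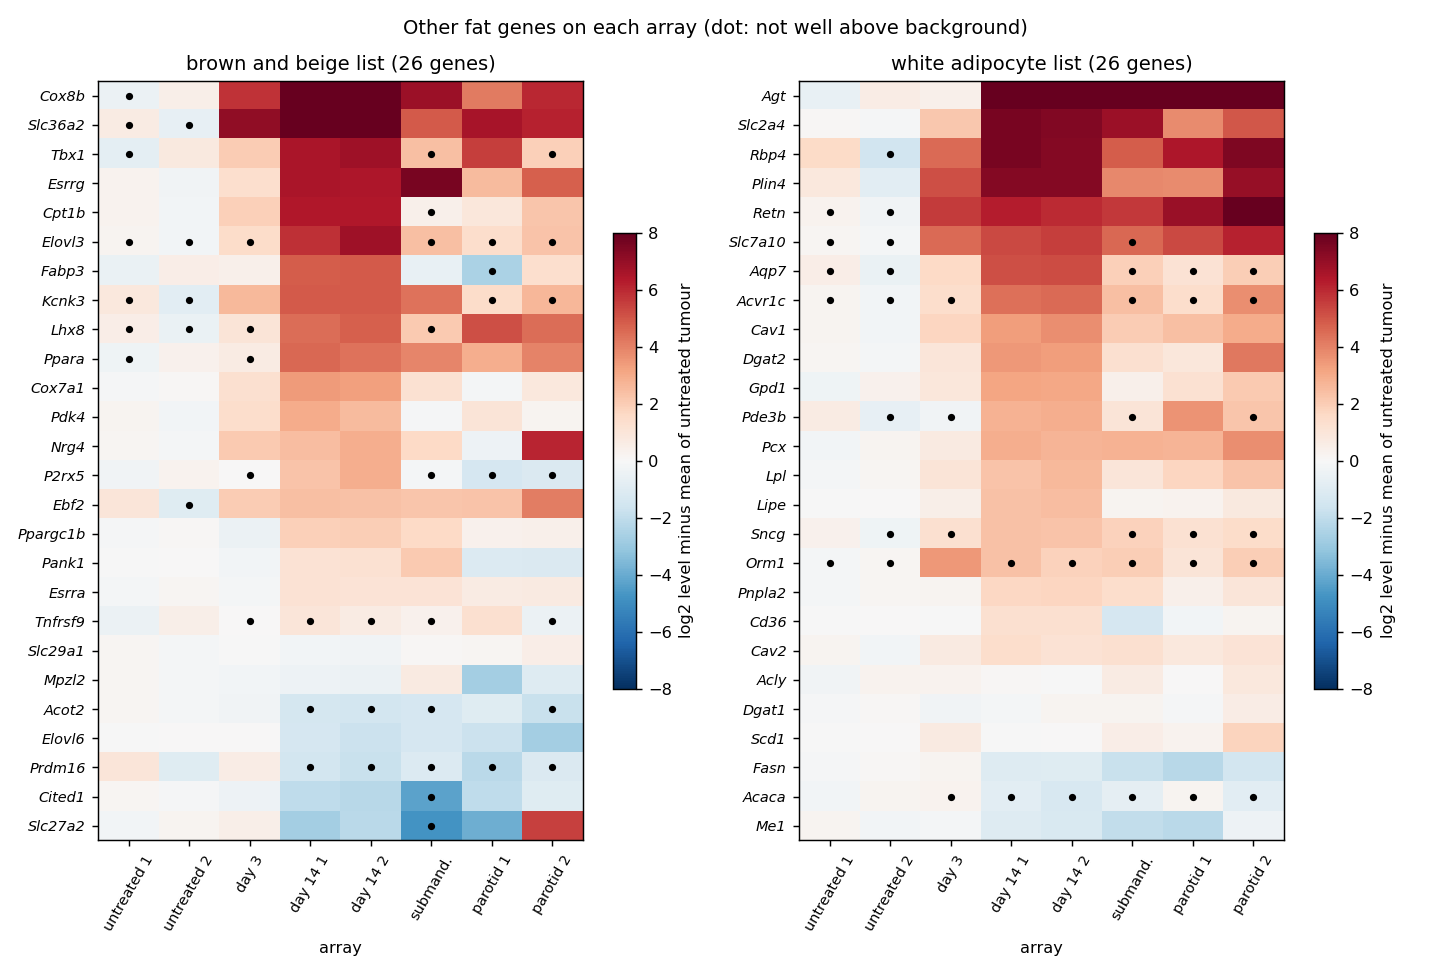
Levels of the 26 brown and beige and the 26 white adipocyte genes on each of the 8 arrays, as log2 level minus the mean of the untreated tumours (colour, limited at 8 either way, genes sorted by day 14), with a dot where a gene was not well above background. Both day 14 columns are red for most genes, with Cox8b (10.32) and Agt (8.16) at the top, and the parotid and submandibular columns are red for most white adipocyte genes too.

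At day 3 only C3 among the 105 other fat genes was called by limma, higher by 4.21 ± 0.25 on the log2 scale (adjusted p = 0.0272), and 22 of the 105 had an unadjusted p under 0.05. C3 had levels of 0.24 and −0.05 on the untreated tumour arrays, 4.31 at day 3 and 5.85 and 5.74 at day 14, and it was the single gene of all 16362 called at day 3. The call rested on the settings, and 0 fat genes were called at day 3 without the intensity trend, with slide as a fixed block, with the arrays of both groups alone or without either untreated tumour, where 25, 15, 38, 20 and 20 had an unadjusted p under 0.05. The white adipocyte list had a median of 0.83 at day 3 and the brown and beige list one of 0.64, against 0.06 over all genes. No gene of either list was called, and 8 of 26 white and 6 of 26 brown genes had an unadjusted p under 0.05. Day 14 against day 3 called 34 of the 105 higher and 3 lower, 35.2% against 22.8% of all genes, among them 12 of 26 brown and beige genes and 11 of 26 white adipocyte genes higher. Of the 34, 4 (Dio1, Elovl3, Pde3b and Ucp3) had passed the filter only through day 14. The 3 lower were Elovl6, Igf1 and Plin2, named after their values were seen.

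In untreated tumour against parotid, 43 of the 105 other fat genes were lower and 12 higher, 52.4% against 39% of all genes. The 12 included Fasn, Plin2, Elovl6, Cited1, Stat5a, Slc25a20 and Ucp2, which fell at day 14. Of the white adipocyte genes 12 were lower and 1 higher, with Agt at −8.58 ± 0.39 (adjusted p = 0.000111), Retn, which encodes resistin, at least 39.1-fold lower (adjusted p = 0.000325) and Rbp4 at −6.96 ± 0.96 (adjusted p = 0.00281). Of the brown and beige genes 9 were lower and 4 higher, with Slc36a2 at least 24.5-fold lower (adjusted p = 0.000387), Cox8b at −5.08 ± 0.64 (adjusted p = 0.00196) and Lhx8, a homeobox gene, at least 7-fold lower (adjusted p = 0.00167). Of the droplet genes 4 were lower and 2 higher, G0s2 at −4.09 ± 0.56 (adjusted p = 0.00267), Mgll at −3.46 ± 0.65 (adjusted p = 0.0084) and Pnpla3, a lipase relative, higher by 2.51 ± 0.62 (adjusted p = 0.0223). Of the transcription genes 7 were lower and 1 higher, Klf15 at −3.76 ± 0.44 (adjusted p = 0.00151), Cebpa at −2.57 ± 0.25 (adjusted p = 0.000786) and Pparg at −2.20 ± 0.49 (adjusted p = 0.0162). Of the 17 oxidation genes 4 were lower and 3 higher, with Acsl1 at −1.26 ± 0.34 (adjusted p = 0.0305), Dbt, a subunit of branched-chain keto acid breakdown, at −1.22 ± 0.29 (adjusted p = 0.0195) and Ucp3 dim in both groups.

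Among receptors and partners 7 were lower and 1 higher in untreated tumours than in parotid glands, C3 at −6.87 ± 0.20 (adjusted p = 3.76e-05) and Cfb, factor B of the same complement pathway, at −3.76 ± 0.32 (adjusted p = 0.000526). Of the 12 preadipocyte and stroma genes 8 were lower and none higher, Dpt at least 81.6-fold (adjusted p = 0.000351), Pdgfra at least 29.7-fold (adjusted p = 0.00213) and Pi16 by −5.65 ± 0.72 (adjusted p = 0.00206). Without untreated tumour replicate 1 the call count over the 105 genes was 30 and without replicate 2 it was 28, against 55 with both.

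Day 14 against parotid called 19 of the 105 other fat genes higher and 5 lower, 22.9% against 11.3% of all genes, and 10 of the 19 were brown and beige genes. Of the 19, 3 (Dio1, Elovl3 and Ucp3) had passed the filter only through day 14. Fabp3, a fatty acid carrier of muscle and brown fat, was higher by 5.49 ± 1.17 (adjusted p = 0.0366) while well above background on a single parotid array. Plin5, a droplet protein of oxidative tissue, was higher by 4.05 ± 0.47 (adjusted p = 0.00869). Aqp7, the glycerol channel of fat, was at least 4.17-fold higher and Ucp3 at least 1.82-fold. Aqp7 had passed the filter only through treated tumours and is given no p. The 5 that were lower were Cebpa (−1.44 ± 0.25, adjusted p = 0.0224) and, named after their values were seen, Bscl2, C3, Cfb and Igf1. Of the stroma genes Dpt was lower by −3.94 ± 0.59 (adjusted p = 0.0162). The count fell without either day 14 array and rose without either parotid array, and so did the share of all genes called. In submandibular against parotid gland 2 were called, Pank1, a kinase of coenzyme A synthesis, higher by 3.21 ± 0.33 (adjusted p = 0.0113) and Irs1, an insulin receptor substrate, by 2.18 ± 0.33 (adjusted p = 0.0312). Without either parotid array that count rose, as did the share of all genes called. Most of the fat genes called were then lower without replicate 1 and higher without replicate 2.

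Markers of skeletal muscle, salivary gland and B cells rose with the fat genes at day 14. On the single day 3 array their sums stayed near those of the untreated tumours, while that of the fat genes was higher. The summed level of the 9 genes, on the linear scale relative to the 75th percentile, was 33.1 and 21.8 on the untreated tumour arrays, 106 at day 3, 430 and 388 at day 14, 37 in the submandibular gland and 56.6 and 221 in the parotid glands. The brightest genes weigh most in this sum. They were Fabp4 and Cidea in untreated tumours, these and Cfd in treated tumours, and Fabp4 and Cfd in the glands. The median log2 level of the 9 was −3.26 and −5.59 in untreated tumours, 2.17 at day 3 and 3.98 and 4.32 at day 14. For 12 skeletal muscle markers that sum was 1.45 and 1.30 on the untreated tumour arrays, 1.81 at day 3, 1500 and 1540 at day 14, 2.43 in the submandibular gland and 2.86 and 151 in the parotid glands. All 12 rose at day 14 and none was called at day 3 by limma, where 0 had an unadjusted p under 0.05, and 6 of 12 were well above background at day 3, against 5 on each untreated tumour. Parotid replicate 2, the higher parotid array for most fat genes, had 12 of 12 muscle markers well above background and replicate 1 had 5. Cox8b, Cox7a1, Cpt1b, Fabp3, Fitm1, Slc2a4, Ucp3 and Ppargc1a are known to be made by muscle as well as by fat, and the part of muscle in their values was not tested. Day 3 was 1 array that shared no slide with the untreated tumours, and the part of muscle in its fat values was not tested either.

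For 10 salivary acinar and duct markers the day 3 sum of 90 lay between the untreated tumours, above replicate 1 with 69.2 and below replicate 2, and the sum was 4090 and 4010 at day 14, 2580 in the submandibular gland and 3030 and 5770 in the parotid glands, and 10 of 10 rose at day 14. For 6 B and plasma cell markers it was 0.282 and 0.152 on the untreated tumour arrays, 0.27 at day 3, 72.6 and 79.5 at day 14, 47.6 in the submandibular gland and 104 and 58.3 in the parotid glands, and 6 of 6 rose at day 14, when all 6 were well above background, against 1 of 6 at day 3. Of 8 proliferation markers all fell at day 14, with sums of 111 and 116 on the untreated tumour arrays, 73.6 at day 3 and 5.84 and 6.0 at day 14. Of 8 endothelial markers 4 rose at day 14, and of 8 macrophage markers 1 rose and 4 fell. Their part in the fat values was not tested.

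**Figure D4:**
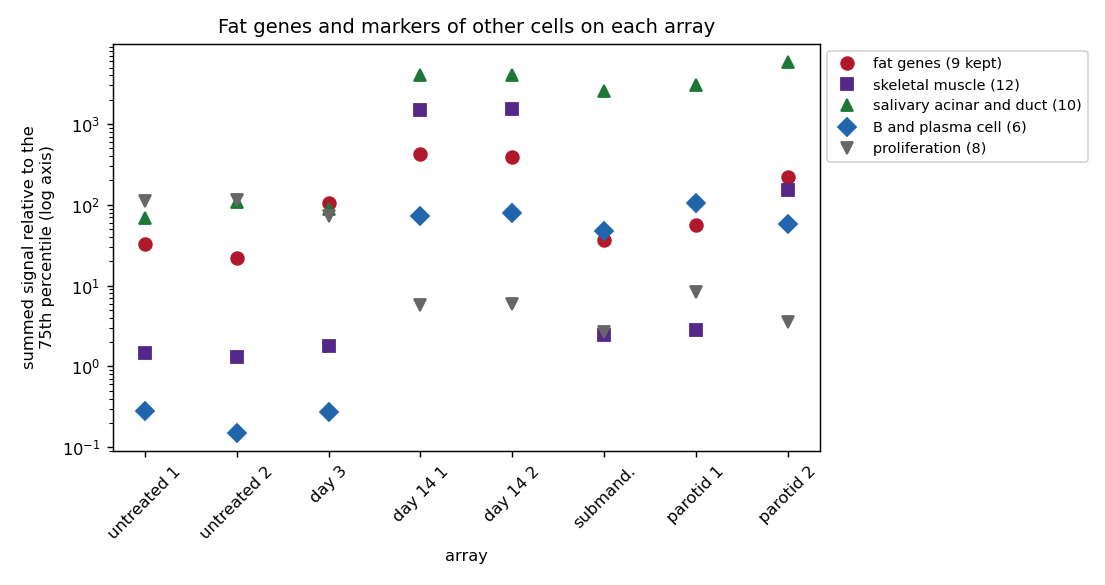
Summed signal relative to the 75th percentile of the array (log axis) for the 9 fat genes and for markers of skeletal muscle, salivary acinar and duct cells, B and plasma cells and proliferation, on each of the 8 arrays (1 point an array and list). The sum of the fat genes, in which the brightest (Fabp4, Cidea and Cfd) weigh most, is higher at day 3 (106) than in the untreated tumours (33.1 and 21.8). The muscle sum is 1.81 at day 3 and 1500 and 1540 at day 14.

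The genes with the pattern most like that of Adipoq over the 8 arrays, by Pearson correlation of levels, were Ahnak (0.979), Car3 (0.977), Eva1b (0.972), Ano6 (0.970) and Amotl2 (0.968). Car3 had levels of −3.45 and −5.90 on the untreated tumour arrays, 2.31 at day 3, 4.54 and 4.49 at day 14, 0.34 in the submandibular gland and 1.02 and 3.42 in the parotid glands. Most like Ucp1 were Ulk3 (0.973), Abcg4 (0.971), Zfp579 (0.970), Nktr (0.968) and Fam160b2 (0.966). Abcg4 had levels of −4.79 and −4.54 on the untreated tumour arrays, −2.51 at day 3, −1.43 and −1.52 at day 14, −4.25 in the submandibular gland and −5.90 and −5.38 in the parotid glands, and like Ucp1 it was not well above background in the normal glands. These correlations describe arrays that share groups and slides and carry no test.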

How the data were processed

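The labels' protocols name Trizol for extraction and 300 ng of RNA for labelling. Arrays were scanned and quantified by the authors in Feature Extraction 10.7.3.1, per the file headers, which gave each spot a background-subtracted, detrended intensity, not scaled between arrays, and quality calls. Probe positions are on mm8. The authors' deposited value table is on a log2 scale with column medians of 5.52 to 5.57, correlated at 0.975 to 0.982 with its own arrays. Its normalization and any centring are not given in the sources used here, and it served as an alternative only.

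Here, log2 intensities minus the 75th percentile of each array were used. Spots that were non-uniform or population outliers were left out, and spots of a probe were averaged. Probes well above background (on at least 50% of a probe's spots) on every array of at least 1 group were kept, and the brightest probe stood for a gene (16362 genes). RefSeq named 23374 probes by accession, 6733 by symbol and 2919 by synonym, and 8148 kept the name in the files. limma 3.58.1 in R 4.3.3 fitted a mean per group over all 8 arrays with an intensity trend (3 residual and 3.28 prior degrees of freedom). Single-array groups were assumed to vary like the others. Adjusted p-values are two-sided Benjamini-Hochberg values over all genes, with a threshold of 0.05, and the scripts were tested on simulated data. Tables were made in Python 3.11.15.

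The 10 genes and the fat and marker lists were chosen with earlier results of these data known. From each list the text names the 3 called genes with the largest difference in day 14 against untreated tumour and in untreated tumour against parotid, 1 in the other comparisons, and the 5 genes most like Adipoq and Ucp1. The markers Elovl3, Prdm16, Otop1, Zic1 and Adrb3 and the genes Orm1, Fasn and Plin2 were named besides. One gene that this rule names is not reported here. Folds of genes that a group never showed well above background are bounds, except those of Dio2 against untreated tumour, which are of measured signals. Log2 differences printed for such genes are also of measured signals that depend on the background. The alternatives were normexp correction (offset 50), quantile normalization, the deposited values, other filters on dim probes, averaging all probes of a gene, no trend, slide as a block, slide 1 alone, the arrays of 2 groups alone, and leaving out arrays. The number of arrays limits the precision.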

Additional observations from a re-analysis of the deposited data

Results flagged for a closer look

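For 12 of the fat and stroma genes named by the rule, the effect of rapamycin at day 14 differed from that at day 3 by limma's test of the difference itself (adjusted p under 0.05 over all genes), which equals day 14 minus day 3 because both effects share the untreated tumours. Only genes that passed this test are listed, and 22.8% of all genes passed it. Esrrg was named through this comparison alone, so its call was fixed by the naming. The others were named for large differences of the same day 14 arrays from untreated tumour. On the log2 scale the effect at day 14 was larger by 7.75 for Agt (adjusted p = 0.000939), 5.32 for Slc2a4 (adjusted p = 0.00212), 5.09 for Esrrg (adjusted p = 0.011), 4.56 for Cox8b (adjusted p = 0.0114), 3.56 for G0s2 (adjusted p = 0.0161), 3.11 for Mgll (adjusted p = 0.0372), 2.82 for Klf15 (adjusted p = 0.0157), 2.73 for Slc36a2 (adjusted p = 0.0232) and 1.49 for C3 (adjusted p = 0.0105). All 9 were higher on both day 14 arrays than on the day 3 array. The 2 Esrrg probes gave 2.14 and 5.09.

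The values were 5.02 for Dio1, 3.50 for Pdgfra (adjusted p = 0.0415) and 3.07 for Ucp3, Dio1 and Ucp3 having passed the filter on dim probes only through day 14. These were not well above background on the day 3 array, so their size depends on the background there, and as bounds they were at least 7.38-fold, 9.64-fold and 2.47-fold higher at day 14. Day 3 was a single array, and without either day 14 array 4 or 5 of the 105 other fat genes were still called in day 14 against day 3, against 37 with both.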

How the results depend on the processing

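No paired analysis was possible because the groups share fewer than 2 replicate numbers in the labels, where the first parotid and day 14 samples carry none. Counts below are of the 105 other fat genes called by limma. In untreated tumour against parotid 55 were called, 35 with the arrays of both groups alone, and 28 to 79 with one array left out. In day 14 against untreated tumour 66 were called, 43 with the filter on all 8 arrays, and 40 to 46 with one array left out. In day 3 against untreated tumour 1 was called, 2 with quantile normalization, 4 without the filter on dim probes, 0 without the trend, with the slide block or with the arrays of both groups alone (25, 15 and 38 at an unadjusted p under 0.05), and 0 to 0 with one array left out (20 each time). In day 14 against day 3, 37 were called, 24 with the filter on all 8 arrays, 71 with the arrays of both groups alone, and 4 to 5 with one array left out. In day 14 against parotid 24 were called, 14 with the arrays of both groups alone, and 0 to 50 with one array left out. In submandibular against parotid 2 were called, 6 with normexp correction and with quantile normalization, 5 without the filter, 1 with the mean of a gene's probes, without the trend or with the slide block, 0 with the arrays of both groups alone (12 at an unadjusted p under 0.05), and 31 to 31 with one parotid array left out. Quantile normalization split those 6 into 3 higher and 3 lower, and normexp into 5 and 1. The median of all genes moved by over 0.1 to −0.16, 0.2 and 0.21 with normexp (untreated tumour against parotid, day 14 against untreated tumour, day 14 against day 3), to 0.12, −0.12 and −0.13 with the deposited values and, without the filter, to −0.97, 1.09 and 0.34, with 0.47 at day 3. Of these counts under the alternatives, 44 stayed within 1.5 times of the value given first and 31 did not. Settings with fewer arrays change the degrees of freedom, and otherwise the cause was not tested. The share of all genes called also rose or fell with one array left out, so those counts are not particular to the fat genes.

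Of the differences of the 9 genes, Cidea in submandibular against parotid changed direction, at −0.05 with all arrays, −1.20 without parotid replicate 1 and 1.10 without replicate 2. Others changed sign too. With normexp, untreated tumour minus parotid went from 0.96 to −0.12 for Ucp1 and from 0.28 to −0.39 for Dio2. In submandibular against parotid, Dio2 went from 1.05 to −0.02 with normexp, and Ucp1 from 0.51 to −0.01 with quantile normalization. Of the differences of the 9 genes between tumour groups, 48 moved by more than the pooled SD under an alternative. In submandibular against parotid, where none was called with the main settings, Ucp1 was called with the deposited values, as given above. Genes near background in a group (Adipoq, Cfd, Plin1, Cidec, Ucp1 and Dio2) are limited by signal over background, and the filter on all 8 arrays kept only Cidea, Ppargc1a and Fabp4 of the 9.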
